A study of Mus musculus with 20 samples.

Results

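Dbp, Tef, Hlf and Nfil3 are 4 of the 47729 genes in the table and were taken by their symbols. They were followed in 20 RNA-seq libraries of whole mouse adrenal glands. The genotype label of 11 libraries is SCC::Cre_CTRL (5 females of 1.5 to 3.4 months and 6 males of 2.9 to 4.7 months, called control here). The label of the other 9 is SCC::Cre_BMAL1 KO (5 females of 2.4 to 3.4 months and 4 males of 2.9 to 3.7 months, called Bmal1 KO or KO). All 20 thus share the Cre label. SCC is read here as the side-chain cleavage enzyme P450scc, product of Cyp11a1, which steroid-making cortical cells express and cells of the medulla, vessels and stroma in the same glands do not. The sources used here do not give the strain, the breeding, the exons removed or the hour of collection.

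DBP, TEF and HLF are the PAR bZIP factors, transcription activators with a proline and acidic amino acid-rich region next to a basic leucine zipper. They bind DNA elements called D-boxes, and NFIL3, also known as E4BP4, is a bZIP repressor that binds the same elements. In the circadian clock the PAR bZIP genes are read from E-boxes by CLOCK and BMAL1, while Nfil3 is read from elements shared by the REV-ERB repressors and the ROR activators. Activators and repressor therefore tend to peak at opposed times of day, and together they carry clock timing to genes of metabolism and detoxification.

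The 300-base windows around the start sites, 250 bases before and 50 after, are shown for Dbp and Nfil3, the members that changed with genotype, and for both starts of Tef, the member whose windows held E-boxes. They are RefSeq sequences on GRCm38.p6, written 5′ to 3′ on the strand of the gene, with motif matches in capitals. Windows were found for 4 of 4 members, of which Tef had 2.
Dbp, chr7:45704997-45705296, plus strand: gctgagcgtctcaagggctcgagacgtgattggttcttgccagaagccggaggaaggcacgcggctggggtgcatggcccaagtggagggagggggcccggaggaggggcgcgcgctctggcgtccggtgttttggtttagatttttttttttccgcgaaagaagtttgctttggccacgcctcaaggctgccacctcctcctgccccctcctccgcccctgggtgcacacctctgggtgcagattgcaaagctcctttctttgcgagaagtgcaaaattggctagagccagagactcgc
Tef, upstream start, chr15:81802423-81802722, plus strand: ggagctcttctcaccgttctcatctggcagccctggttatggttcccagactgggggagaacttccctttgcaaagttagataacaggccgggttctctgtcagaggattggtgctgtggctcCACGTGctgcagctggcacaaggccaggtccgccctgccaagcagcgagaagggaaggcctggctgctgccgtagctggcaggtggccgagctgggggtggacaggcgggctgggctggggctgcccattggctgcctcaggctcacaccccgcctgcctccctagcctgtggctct
Tef, downstream start, chr15:81811164-81811463, plus strand: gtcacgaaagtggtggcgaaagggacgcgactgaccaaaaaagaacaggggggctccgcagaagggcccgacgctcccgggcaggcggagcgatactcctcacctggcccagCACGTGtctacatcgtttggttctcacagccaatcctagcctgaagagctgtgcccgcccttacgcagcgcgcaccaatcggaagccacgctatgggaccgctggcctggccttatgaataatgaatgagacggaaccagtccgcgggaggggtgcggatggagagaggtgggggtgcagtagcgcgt
Nfil3, chr13:52980990-52981289, minus strand: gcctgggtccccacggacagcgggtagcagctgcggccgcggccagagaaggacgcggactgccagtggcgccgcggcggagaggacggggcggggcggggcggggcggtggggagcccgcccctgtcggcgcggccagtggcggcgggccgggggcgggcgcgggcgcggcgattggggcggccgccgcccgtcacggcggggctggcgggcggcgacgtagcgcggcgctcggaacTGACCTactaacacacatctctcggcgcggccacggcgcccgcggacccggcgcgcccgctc

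The E-box CACGTG occurred once in each Tef window, beginning at position -127 from the upstream start and -138 from the downstream start. It was in 7.15% of 32851 such windows of the mouse genome. The Dbp and Hlf windows held no CACGTG and no CACGTT, a variant E-box found in 4.68% of windows on either strand, and the introns of Dbp, known for E-boxes, lie outside the window. The half-site AGGTCA of ROR elements was present once, as its reverse complement TGACCT, in the Nfil3 window, at position -12 from the start, and in 16.3% of all windows. The D-box letters TTATGTAA or TTACGTAA were in none of the 5 windows and in 1.06% of all windows. Both strands were searched, no motif overlapped another in these windows, and a match to letters is a description, not a shown binding site.

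The deposited values are read counts divided by 1 size factor per library, called normalised read count here. Between 13421985 and 26742820 reads per library were recovered from them. The lowest number of reads behind a member's value was 74, for Hlf in control male 6, and the others rested on 193 reads or more. Adrenal cortex and medulla markers were abundant in every library. The 7 cortex markers, among them Cyp11a1 and Star, summed to between 718875 and 1510140 normalised reads, and the 7 medulla markers, among them Th and Pnmt, to between 88245 and 207365. The 5 kidney markers summed to at most 10.1 in any library, with 2 of them at 0 throughout. Arntl, the gene of BMAL1 itself, read 494 to 860 in control females, 833 to 1010.01 in KO females, 365 to 1092 among control males and 841 to 995 among KO males. The log2 difference of Arntl from control was 0.57 ± 0.19 (SE) in females and 0.55 ± 0.19 in males, with limma adjusted p = 0.164 and 0.241. A sum over the whole gene does not check a deletion of some exons, so every direction below rests on the labels.

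Dbp fell in the KO libraries of both sexes, by more than any other member. Its 5 control females read 2568, 3103, 2567, 2403 and 2530 normalised reads, and its 5 KO females 368, 320, 390, 554 and 430. The lowest control female thus stood above the highest KO female by a wide margin. The group means were 2634 ± 271 (SD, n = 5) and 413 ± 88.7 (n = 5). In males the 4 KO libraries read 388, 352, 411 and 460, and the 6 controls ran from 1316 to 2435 with a median of 2250.4. Control male 6 was the lowest control at 1316 and control male 5 the next at 1707, and both were still above every KO male. The male means were 2044 ± 435 (n = 6) and 403 ± 45.0 (n = 4).

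On the log2(value + 1) scale Dbp fell by 2.69 ± 0.15 (SE, 95% interval -3.01 to -2.37, limma adjusted p = 6.02e-10) in females. It fell by 2.32 ± 0.16 (-2.64 to -1.99, adjusted p = 1.58e-08) in males. KO Dbp was thus 0.155 times the control level in females and 0.201 times in males. Ordered by p, Dbp was number 3 of 26612 genes tested in each sex. The KO effect in females minus that in males was -0.38 ± 0.22 (-0.83 to 0.08, adjusted p = 0.861), so no difference between the sexes was shown, and the interval leaves room for one in either direction. Reads counted to Dbp remained in every KO library. In whole glands fewer cells with a transcript and less transcript per cell cannot be told apart.

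Markers of the cortex, the cells that the Cre label points to, differed in part with genotype. The sums of the 7 cortex markers were 1151600 to 1510140 in control females, 1074750 to 1336890 in KO females, 849382 to 1296200 in control males and 718875 to 1033210 in KO males, with none of the markers at 0. Star, which carries cholesterol to P450scc, fell by 0.69 and Cyp11a1 fell by 0.71 in KO males (limma adjusted p = 0.0238 and 0.0321). In males 5 of the 7 had an unadjusted p under 0.05, not all in the same direction: Nr5a1 differed by -0.45, Cyp21a1 by -0.28 and Mc2r by 0.26, while Cyp11b1 stood at 0.25 and Hsd3b1 at 0.17. In females limma called 0 of 7, with Star alone at unadjusted p under 0.05 (-0.53, adjusted p = 0.0815), 0 called by edgeR and 1, Star, by DESeq2. Of the 5 macrophage markers, Mrc1, a mannose receptor, fell by 0.59 in KO females (limma adjusted p = 0.00457), from 560.2 ± 61.4 to 372 ± 35.1 normalised reads, and differed by -0.021 in males (adjusted p = 0.979). The other 4 lay between -0.14 and 0.22 in females, and the sums of the list were 2837 to 7306 in control females, 3216 to 4310.1 in KO females, 3104 to 4181 in control males and 2586 to 4488 in KO males. Of the 5 red blood cell markers limma, edgeR and DESeq2 called 0 in either sex, and 3 had an unadjusted p under 0.05 in females, Hba-a1 (0.75), Hba-a2 (0.64) and Hbb-bs (0.77). Their sums were 6138 to 17015 in control females, 9784 to 20774 in KO females, 6418 to 14764 in control males and 7372 to 18892 in KO males, and no marker of either list was at 0 in every library. Of the 7 medulla markers limma, edgeR and DESeq2 called 0 in either sex. Th (-0.40) and Slc18a1 (-0.42) had an unadjusted p under 0.05 in females, and Pnmt (-0.63) in males. Of the 5 endothelium and 5 adipocyte markers limma and edgeR called 0 in either sex. DESeq2 called Emcn (0.26) in females and Plin1 (0.42) in males. Cdh5 (0.22) in males and Plin1 (0.34) in females had only an unadjusted p under 0.05. All these markers were named after their values were seen, and their part in the fall of Dbp and the differences of Nfil3 was not tested.

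The Dbp gene (chr7:45705088-45710203, plus strand, GRCm38, protein coding) shares 539 exon bases with Sphk2, a sphingosine kinase gene on the opposite strand, and whether reads were counted by strand is not given. Sphk2 read 890.2 ± 61.5 in control females and 881 ± 56.3 in KO females, and 868 ± 50.5 and 822 ± 55.5 in the males. The limma adjusted p by genotype was 0.971 in females and 0.761 in males. Whether Sphk2 reads make up part of the Dbp count left in KO was not tested.

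**Figure D1:**
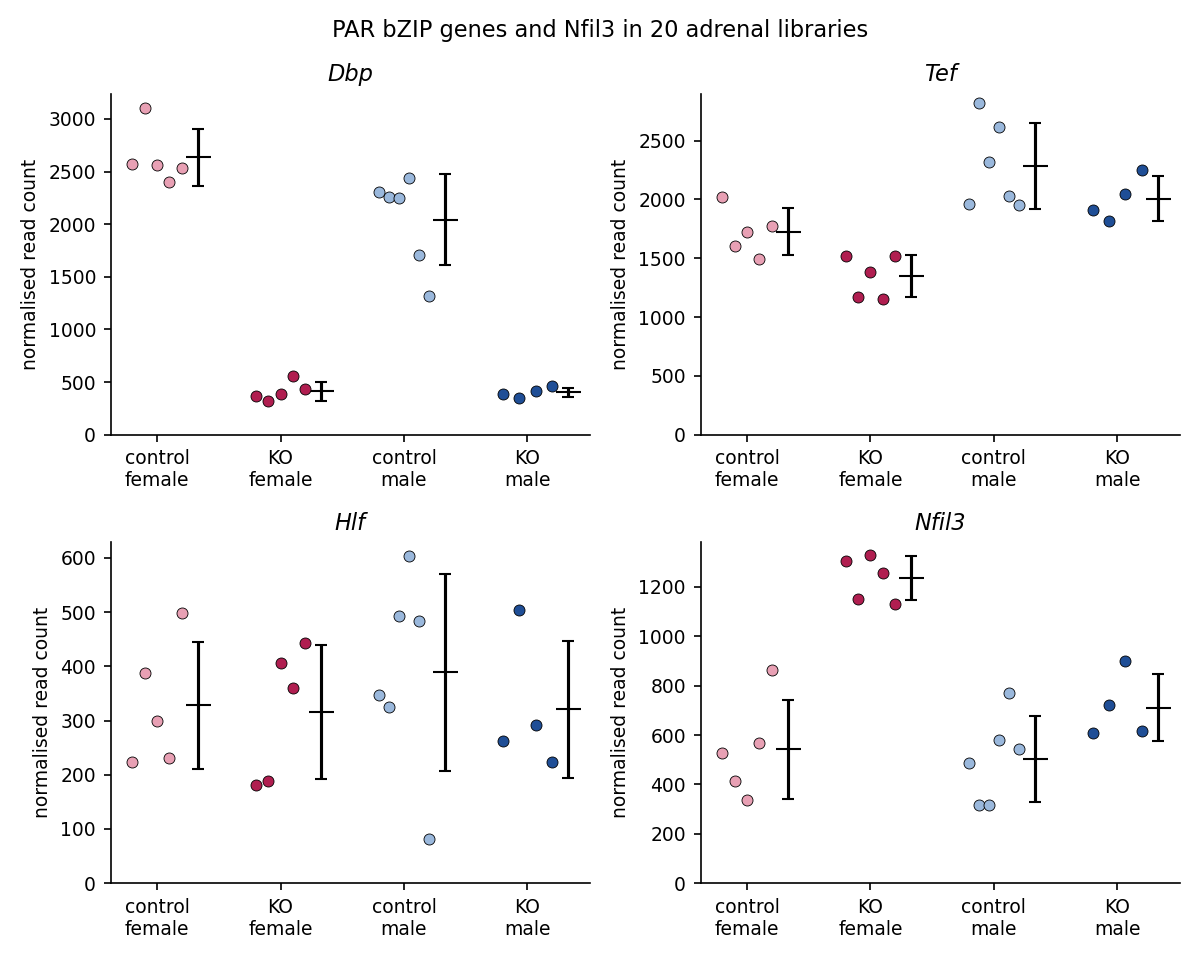
Normalised read counts of the 4 members by group, with axes from 0; each point is 1 library, the dash the group mean and the bar its SD. Dbp was at 2634 in control females against 413 in KO females, Nfil3 at 542 against 1236, and the Hlf groups overlapped throughout.

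Nfil3 rose in KO females. Its control females read 526.3, 415, 336, 569 and 862, and its KO females 1307, 1153, 1331, 1258 and 1130, so that the highest control, female 5, was below the lowest KO female. The means were 542 ± 201.4 (SD, n = 5) and 1236 ± 90.6 (n = 5), a log2 difference of 1.26 ± 0.23 (SE, 95% interval 0.78 to 1.74, limma adjusted p = 0.00396), which is 2.39 times the control level. In males the KO libraries read 609, 722, 900 and 615, and the controls ran from 315 to 772 with a median of 515. Control male 5, at 772, lay above 3 of the 4 KO males, so these groups overlapped. The male means were 502 ± 173 (n = 6) and 712 ± 136 (n = 4), and the difference of 0.56 ± 0.23 (0.07 to 1.04) did not pass over all genes (adjusted p = 0.368, unadjusted p = 0.0274).

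The difference between the sexes in the Nfil3 response was tested directly. It was 0.70 ± 0.33 (95% interval 0.02 to 1.39), with unadjusted p = 0.0439 and limma adjusted p = 0.764, so a call in females and none in males does not show that the sexes differed. In that test 8 of 26612 genes, 0.0301%, were called and 0 of the 4 members were, as with edgeR and DESeq2, while 1 member, Nfil3, had an unadjusted p under 0.05. The size of the Nfil3 difference moved with the setting, without a call. It was 0.97 ± 0.29 with age as a covariate (limma adjusted p = 0.45) and 1.14 ± 0.30 with only shared ages (0.37). With the replicate block it was 0.48 ± 0.34 (0.858). Within the KO libraries alone, Nfil3 was higher in females than in males by 0.81 ± 0.24 (0.30 to 1.32, adjusted p = 0.0195), and the ranges did not overlap. That call was lost without KO male 1 (adjusted p = 0.0549) or KO male 4 (0.0597), and when only KO libraries of ages shared by both sexes were used, where the difference was 0.83 (0.398, with 1 female left). With age as a covariate it was 0.64 and still called (0.0401). In controls the sexes differed by 0.11 ± 0.22 (-0.35 to 0.56, adjusted p = 0.773). Nfil3 (chr13:52967209-52981073, minus strand, protein coding) has 1 annotated transcript and overlaps no other annotated gene.

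Tef differed less, and its genotype differences did not pass the test. The control females read 2025, 1607, 1720, 1494 and 1776, and the KO females 1515, 1170, 1386, 1157 and 1515. Only control female 4, at 1494, lay within the KO range. The difference was -0.36 ± 0.11 (SE, 95% interval -0.59 to -0.12), with unadjusted p = 0.00467 and limma adjusted p = 0.134. In males, KO libraries at 1911, 1818, 2043 and 2255 fell among controls of 1956 to 2818 (median 2173), with 2 KO males below the lowest control. That difference was -0.18 ± 0.11 (-0.41 to 0.06, adjusted p = 0.638). The female interval excludes a fall of the size seen for Dbp.

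Tef was lower in females than in males in both genotypes, which makes it the member with the clearest difference by sex. In controls it was at 1724 ± 200 (SD, n = 5) in females and 2283 ± 367 (n = 6) in males, a log2 difference of -0.40 ± 0.11 (SE, limma adjusted p = 0.00889), although control female 1, at 2025, stood above 2 control males. In KO libraries it was at 1349 ± 177 (n = 5) and 2007 ± 189 (n = 4), a difference of -0.58 ± 0.12 (adjusted p = 0.00124), with no overlap of the ranges. Differences by sex were common. In controls the test called 26.4% of all genes (13.5% with females higher, 12.9% with females lower), and Tef was the 1 member called. In KO 22.8% were called (12.1% higher and 10.6% lower), and 2 members were, Nfil3 and Tef. Ranges of the sexes did not overlap for 13.9% of all genes in controls and 20.7% in KO. Of the 7 cortex markers 5 were higher and 1 lower in control females than in control males, and 4 were higher in KO females, and their part in the Tef difference was not tested. Control females were also younger than control males. With age as a covariate the Tef difference in controls was -0.29 ± 0.13 (adjusted p = 0.173), and in KO it was still called. With only ages shared by both sexes, which left 1 female in each genotype, the differences were -0.11 (adjusted p = 0.845) in controls and -0.42 (adjusted p = 0.303) in KO. Tef (chr15:81802421-81826863, plus strand, protein coding) has 10 annotated transcripts and the 2 start sites shown above, which a count per gene does not separate. It shares 193 exon bases with the antisense gene Gm17597, whose value was at most 9.71 in any library.

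Hlf differed more between libraries of a group than between groups. Control females read 223, 388, 299, 230.04 and 499, and KO females 180.3, 188, 407, 360.3 and 443. KO males read 263, 504, 291 and 223, and control males ran from 81.7 to 603 with a median of 416. The lowest and highest libraries of the whole set, at 81.7 and 603, were thus both control males. The SD was between 35.6% and 46.8% of the group mean in the 4 groups, against 10.3% to 21.5% for Dbp and 9.43% to 16.1% for Tef. Nfil3 was as variable in controls, at 37.2% in females and 34.5% in males, and less so in KO, at 7.33% and 19.1%. The difference from control was -0.09 ± 0.42 (SE, 95% interval -0.95 to 0.78, limma adjusted p = 0.972) in females and -0.12 ± 0.42 (-1.01 to 0.76, adjusted p = 0.965) in males. These intervals include 0 and also a fall as large as 0.95 in females. Without control male 6 the male difference was -0.52 (adjusted p = 0.534), and its sign turned when single other libraries were left out. Hlf (chr11:90336536-90390895, minus strand, protein coding) has 6 annotated transcripts and overlaps no other annotated gene.

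**Figure D2:**
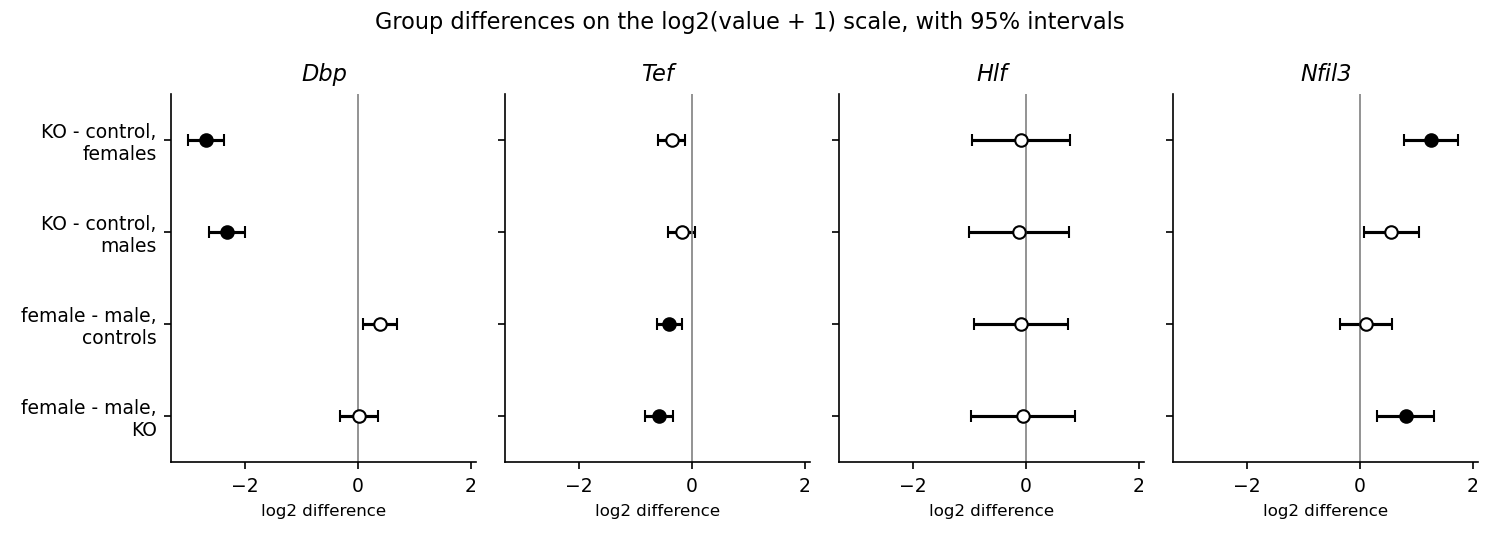
Log2 differences of the 4 members in the genotype and sex comparisons, on the log2(value + 1) scale; bars are 95% intervals from limma and filled points have an adjusted p under 0.05. Dbp stood at -2.69 and -2.32 by genotype, Nfil3 at 1.26 in females, Tef at -0.40 and -0.58 by sex, and every Hlf interval included 0.

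Set against all genes, 2 of the 4 members were called by genotype in females, where 1.75% of genes were called. Nfil3 was higher, as were 1.12% of all genes, and Dbp lower, as were 0.635%. In males 1 of 4 was called, where 1.33% of genes were (0.763% higher and 0.567% lower), and that was Dbp, lower. The control and KO ranges did not overlap for Dbp and Nfil3 in females, as for 3.25% of all genes, and for Dbp in males, as for 3.07%. By level, Dbp ran from control females (2634) to control males (2044), KO females (413) and KO males (403). The sexes differed by 0.39 ± 0.15 (SE, limma adjusted p = 0.0523) in controls and 0.02 ± 0.16 (adjusted p = 0.957) in KO, and the ranges overlapped in both. Tef ran from control males to KO males, control females and KO females, and each neighbouring pair of groups overlapped. Nfil3 ran from KO females to KO males, control females and control males. Of its neighbouring pairs only KO females and KO males had separate ranges. Hlf ran from control males (389) to control females (328), KO males (320.5) and KO females (316), all overlapping.

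The balance between activators and repressor was next described per length, since levels of different genes compare only when divided by exon length. The exon union was 2993 bases in Dbp, 7867 in Tef, 6681 in Hlf and 2026 in Nfil3. It counts exons of every annotated transcript, so a gene with many transcripts is understated. In normalised reads per kb of exon, Dbp was at 880.1 ± 90.4 (SD, n = 5), Tef at 219 ± 25.4 and Hlf at 49.1 ± 17.5 in control females. In KO females Dbp was at 138 ± 29.6, Tef at 171 ± 22.5 and Hlf at 47.2 ± 18.5. The summed PAR bZIP level was 1148 ± 97.7 in control females, 357 ± 46.3 in KO females, 1031 ± 197 for control males (n = 6) and 438 ± 26.7 for KO males (n = 4). Dbp made up 76.6% ± 2.46 of that sum in control females and 66.0% ± 3.29 in control males. It made up 38.5% ± 5.34 in KO females and 30.7% ± 2.05 in KO males, where Tef was the larger part at 48.5% ± 6.79 and 58.2% ± 2.61.

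Nfil3 on the same scale was at 267 ± 99.4 in control females, 610.03 ± 44.7 in KO females, 248 ± 85.4 in control males and 351 ± 67.2 in KO males. The PAR bZIP sum was thus 4.78 ± 1.74 times the Nfil3 level in control females and 4.72 ± 2.17 times in control males. In KO females this ratio was 0.587 ± 0.0881, with every library below 1, at 0.499 to 0.722. In KO males it was 1.28 ± 0.24, at 0.991 to 1.56, above every KO female. The log2 ratio of Dbp to Nfil3 reads, which needs no scaling between libraries, was 1.55 to 2.93 in control females and -1.85 to -1.18 in KO females. It was 1.14 to 2.83 in control males and -1.13 to -0.42 in KO males. These ratios restate the changes of the members and were not tested. The ratio of the PAR bZIP sum to Nfil3 rests on the exon union, which understates genes with many transcripts. Dbp has 5, Tef 10 and Hlf 6 annotated transcripts and Nfil3 has 1, so whether that ratio lies below 1 depends on this scale.

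**Figure D3:**
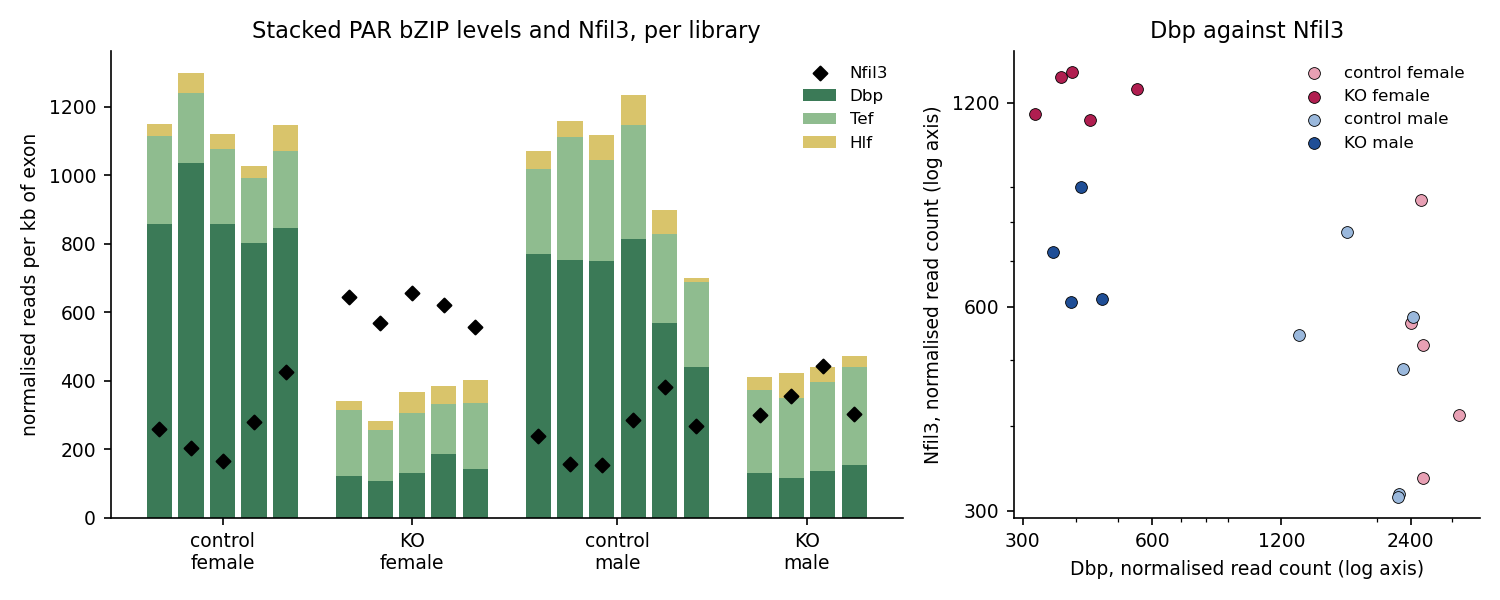
Left, normalised reads per kb of exon in each library, with Dbp, Tef and Hlf stacked and Nfil3 as diamonds; right, Dbp against Nfil3 by library on log axes. On this exon scale Nfil3 stood above the whole PAR bZIP stack in each KO female (ratios 0.499 to 0.722) and just above it in KO male 3 (0.991). It stood far below the stack in controls.

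Genes tied to the members by what is known of the clock were read as lists, chosen with earlier results of these data known. The ROR element list holds genes read, like Nfil3, from REV-ERB and ROR elements, and Arntl, the targeted gene, is among them. Of its 4 genes, 2 were higher in KO females and 3 in males, and all 4 stood above 0 in both sexes, with a median log2 difference of 1.79 in females and 1.77 in males beside a median of 0.00 over all genes in each sex. Npas2, a relative of CLOCK, rose by 3.01 ± 0.15 (SE) in females and 3.001 ± 0.16 in males, and Cry1, a repressor of CLOCK and BMAL1, by 3.03 ± 0.12 and 3.08 ± 0.13. Clock rose in males by 0.42 and differed by 0.25 in females (limma adjusted p = 0.0815), where DESeq2 called it and edgeR did not. Arntl, at 0.57 and 0.55 and not called, and Npas2 are the middle values between which each median lies, so the medians lean on the targeted gene.

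The E-box list holds clock genes read, like Dbp, Tef and Hlf, by CLOCK and BMAL1, and the D-box list holds clock genes with elements for the 4 members themselves. They share 7 genes, and Cry1 is on all 3 clock lists. Of 11 E-box genes 3 were higher and 4 lower in each sex, and of 9 D-box genes 2 were higher and 3 lower in each sex. The median log2 difference was -0.04 in females and -0.50 in males over the E-box list, and -0.21 and -0.50 over the D-box list. The REV-ERB repressors Nr1d1 and Nr1d2 also fell. Their log2 differences were -3.40 ± 0.26 (SE) and -2.72 ± 0.19 in females, and -2.59 ± 0.26 and -2.12 ± 0.19 in males. The repressor gene Bhlhe41 fell too, with -1.61 ± 0.23 in females and -1.63 ± 0.24 in males. Per3, a period gene, had -1.14 and -1.01, the male call being lost without control male 2 or 3 or KO male 1 or 2 (limma adjusted p from 0.0525 to 0.0943), with the male groups alone (0.0978) or with only shared ages (0.121). Cry1 was the largest riser of both lists. Per2, a period gene and repressor, rose by 1.07 in females and 0.96 in males, the male call being lost without any of 8 of the 10 male libraries or 3 of the females (0.0507 to 0.161). It was also lost with no filter on low values (0.0523), with the male groups alone (0.127), with age as a covariate (0.081) and with only shared ages (0.225), and the last setting ended the female Per2 call too (0.0506). Cry2, a repressor like Cry1, rose by 0.55 and 0.42, with the male call being lost without control male 3 or KO male 1 or 3 (0.0538 to 0.082), with the replicate block (0.0541) or with only shared ages (0.059). Per1 differed by 0.30 (limma adjusted p = 0.573) and -0.50 (0.274), Rora by -0.21 (0.526) and -0.22 (0.537), and Bhlhe40 by 0.55 (0.0615) and 0.19 (0.732). DESeq2 called Bhlhe40 in females and edgeR did not.

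**Figure D4:**
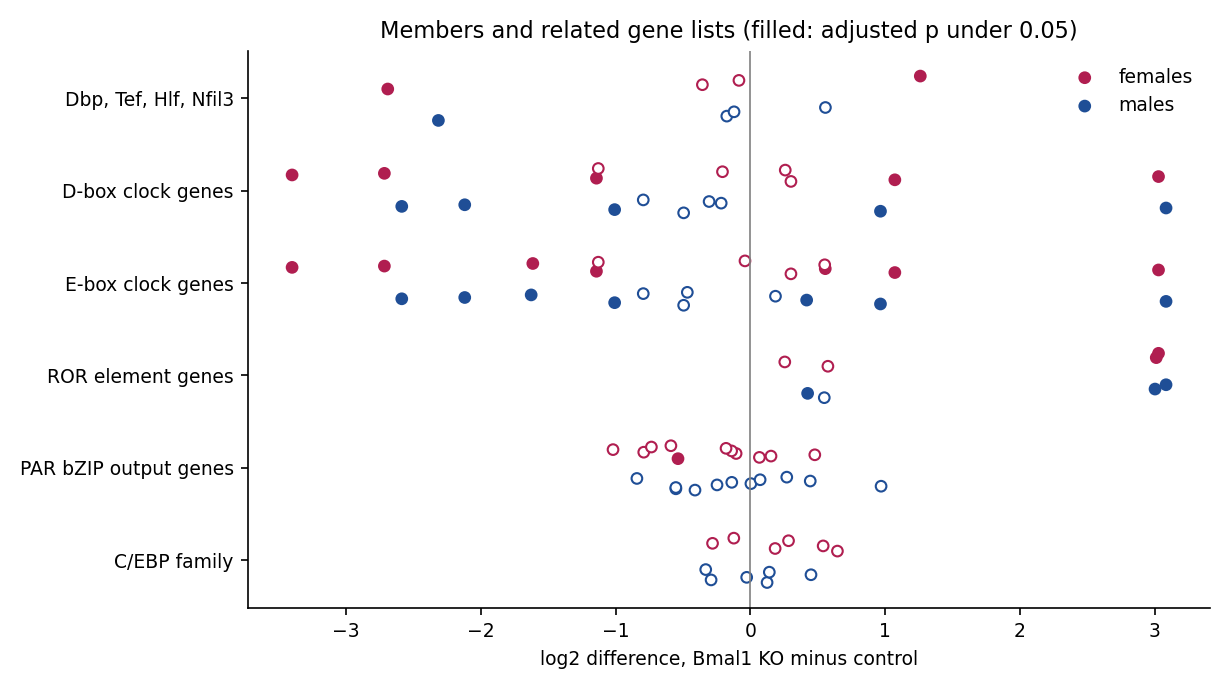
Log2 differences of Bmal1 KO from control for the 4 members and for 5 related gene lists; each point is a gene, red for females and blue for males, filled where the adjusted p is under 0.05. All called ROR element genes lay above 0 (2 in females, 3 in males), E-box and D-box genes lay on both sides, and 1 output gene was called, in females.

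The output list holds 13 genes known as PAR bZIP outputs in liver, kidney or heart, of which 11 passed the filter on low values. In KO females 1, Por, was called and was lower, by edgeR and DESeq2 too, and Ppara alone joined it at unadjusted p under 0.05. In males limma called 0, with 4 at unadjusted p under 0.05 (Alas1, Pdxk, Por and Ppara), 0 called by edgeR and 1, Por, by DESeq2. Por, which passes electrons to P450 enzymes of the microsome, was at 3469 ± 332 in control females and 2405 ± 402 in KO females, and fell by 0.54 (limma adjusted p = 0.0132). The call was lost with the replicate number as a block (adjusted p = 0.0994). In males Por differed by -0.41 (adjusted p = 0.0991). Alas1, which begins heme synthesis, differed by 0.07 (0.952) and -0.55 (0.254), and Nr1i3, a xenobiotic receptor, by 0.15 (0.953) and -0.55 (0.75). The list's median was -0.18 in females and -0.14 in males, beside 0.00 over all genes in each sex. The female median is the value of 1 gene at a low level, Acot4, with means of 13.0 in control females and 12.8 in KO females. Nr1i3 was low too, with group means from 6.7 to 15.3 normalised reads. Among the 6 genes of the C/EBP family, bZIP factors whose sites resemble D-boxes, limma called 0 in either sex. In females 3 had an unadjusted p under 0.05 (Cebpa, Cebpd and Cebpg), edgeR called Cebpa and DESeq2 called Cebpa and Cebpg. In males 1 had (Ddit3), with 0 called by edgeR and DESeq2. Cebpa differed by 0.65 (adjusted p = 0.0506) and 0.12 (0.874), and Cebpb by 0.18 (0.769) and -0.29 (0.596). The other names in these counts were given after their values were seen.

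Last, the genes most alike to each member over the 20 libraries were named. Likeness was the root mean square difference of log2(value + 1) after centring each gene. It was taken over 12216 other genes with a mean of at least 100, and a smaller number is more alike. Differences between the groups were part of this measure. Genes near a member that changed with genotype were thus picked partly for that change, and their genotype calls are descriptions. For Dbp, whose own spread about its mean was 1.27, the nearest were Nr1d2 (0.309), Nr1d1 (0.372), Bhlhe41 (0.629), Gulo (0.712) and Rasd1 (0.743). Gulo, which encodes the last enzyme of vitamin C synthesis, fell, with log2 differences of -1.75 in females and -1.66 in males (limma adjusted p = 0.000104 and 0.000338). Rasd1, a Ras-like protein induced by glucocorticoids, had -1.18 and -1.30. The Rasd1 calls were lost with only ages shared by the groups (limma adjusted p = 0.0891 and 0.0503), and in males also with the male groups alone (0.0779).

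For Nfil3, with a spread of 0.657, the nearest were Gem (0.282), Nfkbia (0.323), Trp53inp1 (0.371), Arl4a (0.378) and Arhgap25 (0.39). Gem, a small GTP-binding protein, rose by 0.98 in females and 0.74 in males (limma adjusted p = 0.000211 and 0.00632), and Trp53inp1, a stress protein induced by p53, by 1.06 and 0.74. Nfkbia, the inhibitor of NF-kB, rose in females by 0.76 and differed in males by 0.45 (adjusted p = 0.217), and the female call was lost with the female groups alone (0.0848). Arl4a rose by 0.59 and 0.51 (limma adjusted p = 0.0109 and 0.0409). Its female call was lost with the female groups alone (0.0822). Its male call was lost in 13 fits without 1 library (0.0501 to 0.123) and in 5 other settings (0.0517 to 0.151). For Tef, with a spread of 0.334, the nearest were Prr3 (0.159), the cotransporter gene Slc12a7 (0.168), Cpsf1 (0.17), Klhl23 (0.172) and Cxxc4 (0.174). The clock genes of the lists were not among them. Cpsf1 differed by -0.23 in KO females and -0.28 in KO males (limma adjusted p = 0.0206 and 0.00597), and the others were called in neither sex. Its female call was lost in 4 fits without 1 library (0.0507 to 0.0666) and in 3 other settings (0.0773 to 0.102). For Hlf, with a spread of 0.663, the nearest were Rgl1 (0.478), the cyclin gene Ccnd2 (0.507), Prkg2 (0.52), Arnt2 (0.521) and Rapgef2 (0.528), all far from it in relation to that spread.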

How the data were processed

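Per the labels' protocols, RNA of whole adrenals (Direct-zol extraction) went into Illumina TrueSeq RNA libraries. Tools in the submitters' processing notes are DESeq2, featureCounts, Salmon, FastQC and MultiQC, and builds mm10 and GRCm38, with no roles or versions. The aligner, annotation release and strand setting were not given in these sources. The table deposited by the authors is a normalised signal for every gene in each of 20 libraries, and each of its 20 columns carries the title of a sample.

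Values in every library were whole multiples of a single step (100%, tolerance 0.001 of a read), which gave back the reads, between 13421985 and 26742820 per library. Steps stood in a ratio of 1 to DESeq2 size factors. Members were located in GENCODE M21.

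The main test was limma-trend (limma 3.58.1 in R 4.3.3) on log2(value + 1), fitting a mean for each of the 4 groups. It took 26612 genes that reached 1 in 4 or more libraries, and calls are Benjamini-Hochberg adjusted p-values below 0.05 over those genes. The alternatives were other pseudocounts, filters, TMM scaling, limma-voom, edgeR 4.0.16 and DESeq2 1.42.0 on the recovered reads, fewer samples, age as a covariate and a replicate block, and the fits were tested on simulated data. Genes named are the members, Arntl, list genes called by genotype with up to 2 that were not, and the 5 genes most alike to each member. Members and lists were chosen with earlier results of these data known, and 1 list gene is not reported here. No label says that the libraries came from separate animals. Age labels differ within every group, while libraries of the same age may be repeats. The p-values therefore speak only of the spread among these samples, possibly technical in part.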

Additional observations from a re-analysis of the deposited data

Results flagged for a closer look

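In 20 sets of libraries (4 members and Arntl in 4 groups), 2 libraries stood apart from their group on the log2 scale, where chance gives about 1 in 20. Hlf in control male 6 was at 81.7 normalised reads, below the other 5 control males at 325 to 603. The same library had the lowest Dbp of the controls (1316) and the highest Arntl of all libraries (1092). Dbp in control female 2 was at 3103, above the other control females at 2403 to 2568. Dbp was called in both sexes without either library.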

How the results depend on the processing

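The fall of Dbp in both sexes and the rise of Nfil3 in females kept their direction and call in the 12 other settings and the 20 fits without 1 library. Nfil3 in males and Tef by genotype were called in none of them. Without 1 library, Hlf ran from -0.23 to 0.090 in KO females against controls, -0.52 to 0.050 in males, -0.14 to 0.44 for the interaction, -0.49 to 0.085 by sex in controls and -0.20 to 0.19 by sex in KO. Dbp by sex ran from 0.27 to 0.45 in controls and -0.10 to 0.10 in KO, and Nfil3 by sex from -0.079 to 0.26 in controls and 0.74 to 0.93 in KO. Dbp by sex in controls was called with a mean of at least 10 (0.39, adjusted p = 0.0417), TMM (0.41, 0.0373), limma-voom (0.41, 0.0175) and DESeq2 (0.37, 0.048). In the fits without 1 library its limma adjusted p ran from 0.0331 to 0.136, so its call also depended on the library left out. With age as covariate, Tef by sex in controls was -0.29 (0.173) and Nfil3 turned to -0.33 (0.412). With only shared ages these were -0.11 (0.845) and -0.25 (0.656), and in KO Dbp turned to -0.14, Tef was -0.42 (0.303) and Nfil3 0.83 (0.398). There 1 female was left per genotype, assumed to vary like the other groups. Whether numbers shared by titles pair the samples was not settled (correlations of deviations from -0.0707 to 0.142). Within every group the numbers run from older to younger by the age labels. The replicate block and likeness by number are therefore not separate from age. By this correlation, control females were most alike to the KO female of their number for numbers 1, 2 and 4, not 3 and 5. They were most alike to the control male of their number for 2, 4 and 5, not 1 and 3. In the comparisons with KO males the own number was never the highest. With the replicate block, Dbp by sex in KO was -0.0044 (0.986), the interaction had 5 calls in place of 8, and no member's call changed.

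Calls over all genes were 467 in females (262 with shared ages, 906 with DESeq2) and 354 in males (195 with only the male groups, 199 with shared ages, 730 with DESeq2). The interaction had 70 with DESeq2 and 0 with limma-voom, age as covariate or shared ages. By sex, controls had 7023 (3746 with age as covariate, 910 with shared ages) and KO 6055 (1341 with shared ages). Without 1 library the counts ran from 335 to 515 in females, 217 to 477 in males and 0 to 16 for the interaction. The male count was 229 without control male 2 and 217 without KO male 4. The causes were not tested, beyond the fewer samples where libraries were left out. A depth of 74 reads limits Hlf in control male 6.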

Other observations

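Relations among the members from library to library were added after their values were seen, as deviations of log2(value + 1) from the group mean over 20 libraries, which share each library's scaling. Of 10 relations (6 pairs of members, and each member with Arntl), none passed Benjamini-Hochberg adjustment. Dbp and Arntl had r = -0.575 (two-sided permutation p = 0.028, adjusted 0.199) and rho = -0.531 (p = 0.0187, adjusted 0.187), with r = -0.672 in the 11 controls and -0.451 in the 9 KO libraries. Without the 2 libraries farthest from the Dbp median, KO female 4 and control male 6, r was -0.348. Dbp and Hlf had r = 0.583 (p = 0.0398, adjusted 0.199) and rho = 0.331 (p = 0.192, adjusted 0.631), and r = 0.292 without the same 2 libraries, so that relation rested on those libraries. Dbp and Nfil3, which moved in opposite directions with genotype, had r = -0.303 (p = 0.258, adjusted 0.587) and rho = -0.384 (p = 0.115, adjusted 0.577) within groups, and -0.0168 in the 9 KO libraries.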
